A study of Mus musculus with 12 samples.

Results

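The genes described here encode the proteins of box C/D small nucleolar ribonucleoproteins and the factors that assemble them: Fbl, Nop56, Nop58, Snu13, Nufip1, Znhit3, Znhit6, Ruvbl1, Ruvbl2 and Pih1d1. These 10 genes were taken by symbol from a table of 55385 genes measured in C2C12 cells, each symbol occurred once, and all 10 were among the 15932 genes with enough reads to be tested. The groups were 3 libraries of C2C12 myotubes, sampled after 7 days of differentiation, and 3 libraries of undifferentiated C2C12 myoblasts. C2C12 is an established mouse myoblast line that fuses into multinucleate myotubes in culture, and the labels name no transgene, allele or added agent in either group. The series also sequenced small RNA of E14TG2a mouse embryonic stem cells with and without retinoic acid, in tables of box H/ACA RNA families that hold none of these genes and were not used here. Whether replicate libraries were grown separately is not stated, and p-values here measure only their spread, which may be technical.

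Box C/D small nucleolar RNAs (snoRNAs) guide 2'-O-methylation of ribosomal RNA and of spliceosomal RNA, and a few of them, such as U3, act in the cleavage of the ribosomal RNA precursor. Each RNA carries a set of core proteins: SNU13 binds a kink-turn in the RNA, NOP56 and NOP58 dock on it through related NOP domains, and fibrillarin, the product of Fbl, is the methyltransferase. The core is not put together by the proteins alone. NUFIP1 with ZNHIT3, the zinc-finger protein ZNHIT6, and the R2TP complex (the AAA+ ATPases RUVBL1 and RUVBL2 with PIH1D1 and RPAP3, working with the chaperone HSP90) load the proteins and are then released. Proliferating cells, which make many ribosomes, are known for high levels of these proteins.

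Every member had a lower mean level in myotubes than in myoblasts, and in each of the 10 the highest myotube library lay below the lowest myoblast library. Of all tested genes 27.2% were separated in this direction. At an adjusted p under 0.05, 8 of the 10 fell and none rose, against 19.6% of all tested genes that fell and 20.5% that rose, 40.1% in either direction (edgeR quasi-likelihood test, Benjamini-Hochberg adjustment over all tested genes). The median log2 fold change, myotubes over myoblasts, was -1.41 over the members and 0.06 over all tested genes. The median was -1.89 over the 4 core protein genes, -0.65 over the 3 assembly factor genes and -1.50 over the 3 R2TP genes. These are descriptions of a list chosen with earlier results of these data known. In bulk RNA, fewer cells of a type and less RNA per cell cannot be told apart.

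Total counts were 18335785 to 31119511 per myotube library and 22200097 to 54083215 per myoblast library, and a member had 107 to 3290 reads in a myotube library and 253 to 18819 in a myoblast library. Levels below are read counts scaled to library depth (CPM) with TMM factors, and they compare libraries, not genes. A set of 7 myotube markers summed to 3092 to 7633 CPM in myotubes and to 11.5 to 66.8 CPM in myoblasts, and 4 markers of cycling cells summed to 180.0 to 809 CPM in myotubes and to 2060 to 2132 CPM in myoblasts. Within the myotubes, replicate 1 had the lowest myotube marker sum (3092 CPM, with 7633 and 6871 CPM in replicates 2 and 3) and the highest cycling sum (809 CPM, with 213 and 180.0 CPM). Of 5 myoblast markers, all were detected in both groups, and their sum, most of it from Des, was 1148 to 2622 CPM in myotubes and 503 to 848 CPM in myoblasts. Des, the muscle intermediate filament gene, averaged 1778 CPM in myotubes and 501 CPM in myoblasts and rose, while Myf5, a myogenic lineage factor gene, averaged 11.01 CPM in myotubes and 37.4 CPM in myoblasts and fell (adjusted p = 0.00872 and 0.0029). Pax7, Myod1 and Vcam1 did not pass the test. Markers of adipocytes, osteoblasts, leukocytes, epithelium, endothelium and neurons each summed to at most 3.77 CPM in any library. In myotubes Adipoq, Plin1, Cidec, Ptprc, Laptm5, Epcam, Kdr, Snap25 and Rbfox3 were at 0 counts, and in myoblasts Adipoq, Cidec, Ibsp, Snap25 and Rbfox3 were. The share of mitochondrially encoded reads was 4.52 to 5.68% in myotubes and 0.952 to 1.96% in myoblasts. Between the groups the cycling sum was lower in myotubes, as the members were, and the mitochondrial share was higher. Within the myotubes the cycling sum was highest in replicate 1, where the summed level of the members was lowest. The part of either in the changes was not tested.

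**Figure D1:**
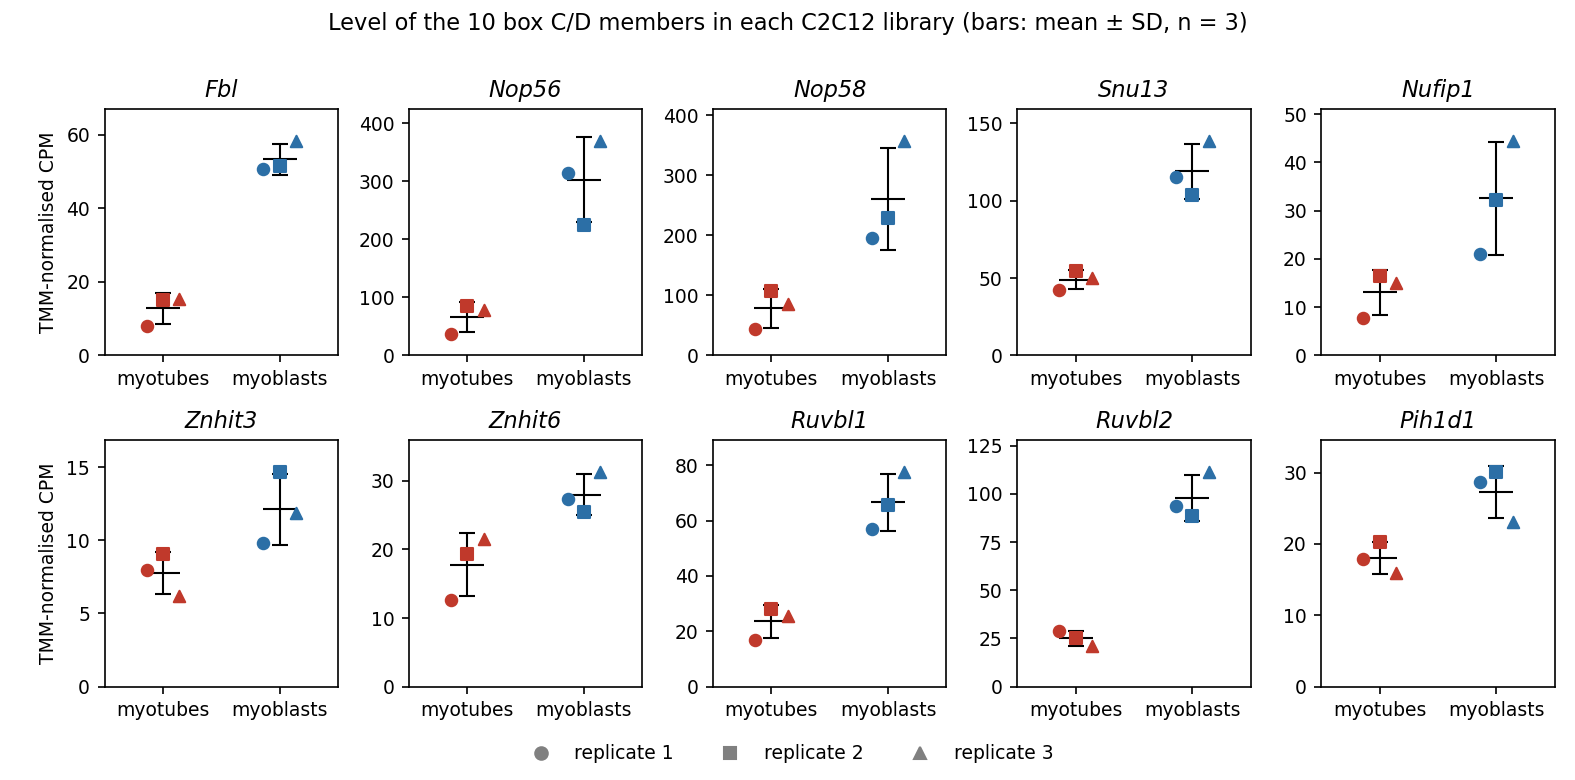
TMM-normalised CPM of each member in every C2C12 library, one panel per gene with its own axis from 0; points are libraries (shape gives the replicate number), and bars are the mean ± SD of 3 libraries. In every panel the 3 myotube points lie below the 3 myoblast points, closely so for Znhit3 (9.06 CPM at most against 9.83 CPM at least) and widely so for Fbl (15.4 against 50.6 CPM).

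All 4 core protein genes fell. Fbl (ENSMUSG00000046865.7, chromosome 7, 28168893 to 28179269; gene spans here and below are from RefSeq on GRCm38.p6, the assembly also called mm10) encodes the methyltransferase. It had 8.002, 15.0 and 15.4 CPM in myotube replicates 1, 2 and 3, against 50.6, 51.4 and 58.2 CPM in myoblast replicates 1, 2 and 3. The myoblast libraries were close together, and each myotube library stood far under them. The mean level in myotubes was 23.9% of that in myoblasts, a log2 change of -2.06 ± 0.27 (SE, adjusted p = 0.000856). Fbll1, a close relative of Fbl, had 0 counts in all 6 libraries. This allows a level of up to 0.0391 CPM in myotubes and 0.0261 CPM in myoblasts (3 counts per group at the 95% level, counting error only). Unlike the other levels, these limits are scaled to total counts without TMM factors.

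Nop56 (ENSMUSG00000027405.16, chromosome 2, 130274367 to 130279313) and Nop58 (ENSMUSG00000026020.9, chromosome 1, 59684961 to 59711510) encode the NOP-domain partners that hold fibrillarin in place. Nop56 had 36.8, 84.8 and 78.4 CPM in the myotube libraries, against 314, 225 and 369 CPM in the myoblast libraries. It fell to 22.0% of the myoblast mean, with a log2 change of -2.18 ± 0.34 (SE, adjusted p = 0.00198). Of all tested genes, 3.78% had a log2 fold change this low or lower. Nop58 had 43.4, 107 and 85.2 CPM in myotubes, against 195, 228 and 357 CPM in myoblasts. Both genes were lowest in myotube replicate 1, at less than the level of the other myotube libraries by more than those differed from each other. Nop58 fell to 30.2% of the myoblast mean, a log2 change of -1.73 ± 0.36 (SE, adjusted p = 0.00744).

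Snu13 (ENSMUSG00000063480.8, chromosome 15, 82041345 to 82047598) encodes the kink-turn binding protein, which is also part of the U4/U6.U5 tri-snRNP of the spliceosome. It had 42.3, 54.8 and 50.0 CPM in myotubes, against 115, 103 and 138 CPM in myoblasts. The spread within each group was smaller than the gap between them. Snu13 fell least of the core, to 41.2% of the myoblast mean, with a log2 change of -1.28 ± 0.19 (SE, adjusted p = 0.00145).

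The set of RefSeq promoter sequences used here left out Fbl and Znhit3, and gave Znhit6 and Pih1d1 more than 1 annotated start. It covered 8 of the 10 members: Nop56, Nop58, Snu13, Nufip1, Znhit6, Ruvbl1, Ruvbl2 and Pih1d1. The 250 bases before a transcript start listed in the RefSeq promoter table are shown, as examples, for the core genes among them and for Ruvbl1. Nufip1, Ruvbl2 and Pih1d1 also fell, and their windows are not shown. A link between the motifs and the changes was not tested. The windows are chr2:130274162-130274411 on the plus strand for Nop56, chr1:59684756-59685005 on the plus strand for Nop58, chr15:82047599-82047848 on the minus strand for Snu13 and chr6:88465159-88465408 on the plus strand for Ruvbl1, all on GRCm38.p6, written 5' to 3' along the gene. For Nop56 and Nop58 the listed transcript start lies inside the gene span given above, which begins farther upstream, so the last 45 bases of each of these windows are within the span, and the Snu13 and Ruvbl1 windows end where their spans begin. The Ruvbl2 and Pih1d1 windows, not shown, lie wholly inside the spans of these genes. Capitals mark a match to any of the motifs CACGTG (the E-box bound by MYC with MAX and by USF proteins), CCGGAAG (a core of ETS family sites), the NRF1 site or CCAAT (the NF-Y site), searched on either strand.
Nop56: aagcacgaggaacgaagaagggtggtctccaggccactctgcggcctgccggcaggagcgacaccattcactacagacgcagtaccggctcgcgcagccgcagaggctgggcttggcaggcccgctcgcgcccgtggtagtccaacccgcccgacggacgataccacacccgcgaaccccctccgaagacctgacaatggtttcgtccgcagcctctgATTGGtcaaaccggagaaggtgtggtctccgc
Nop58: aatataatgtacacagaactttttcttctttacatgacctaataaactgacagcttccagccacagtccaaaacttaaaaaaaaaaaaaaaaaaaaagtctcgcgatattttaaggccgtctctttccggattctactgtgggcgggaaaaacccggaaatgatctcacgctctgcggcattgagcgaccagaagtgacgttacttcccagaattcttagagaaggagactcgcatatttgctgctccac
Snu13: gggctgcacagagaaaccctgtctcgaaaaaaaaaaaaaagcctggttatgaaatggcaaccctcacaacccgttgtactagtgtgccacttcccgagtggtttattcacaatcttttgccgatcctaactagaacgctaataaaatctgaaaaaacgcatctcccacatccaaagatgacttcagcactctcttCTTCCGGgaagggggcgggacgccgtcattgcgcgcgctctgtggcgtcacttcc
Ruvbl1: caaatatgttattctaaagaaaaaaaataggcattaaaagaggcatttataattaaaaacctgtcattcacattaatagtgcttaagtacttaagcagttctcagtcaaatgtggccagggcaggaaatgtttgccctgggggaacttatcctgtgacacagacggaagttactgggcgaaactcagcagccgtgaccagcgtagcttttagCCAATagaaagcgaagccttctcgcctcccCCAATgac
In the Nop56 window a CCAAT on the opposite strand lies 32 to 28 bases before the listed transcript start, inside the gene span. Ruvbl1 holds CCAAT 38 to 34 and 8 to 4 bases before the start, Snu13 holds a CCGGAAG on the opposite strand 55 to 49 bases before it, and the Nop58 window holds none of the motifs. CCAAT occurred in 5 of the 10 windows of these 8 genes and in 33.9% of 32851 windows of the same length in the RefSeq table. CCGGAAG occurred in 1 of the 10 windows and in 6.91% of all windows. CACGTG and the NRF1 site occurred in none of the 10, and in 6.02% and 0.782% of windows. The GC content of the 4 windows shown was 65.2% for Nop56, 41.2% for Nop58, 49.2% for Snu13 and 42.4% for Ruvbl1, with a median of 52.4% over all windows. No searched motif was in all 4 windows shown, and a match or its absence says nothing of what binds there.

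Among the assembly factors 1 of 3 passed the test. Nufip1 (ENSMUSG00000022009.1, chromosome 14, 76110891 to 76137379), the RNA-binding scaffold of assembly, had 7.77, 16.6 and 15.0 CPM in myotubes, against 21.1, 32.1 and 44.4 CPM in myoblasts. It varied widely within each group, by more than 2-fold between the lowest and the highest library. Nufip1 fell to 40.2% of the myoblast mean, with a log2 change of -1.31 ± 0.35 (SE, adjusted p = 0.02). Its call was lost without myoblast replicate 2 (adjusted p = 0.0556) or myoblast replicate 3 (adjusted p = 0.0706), over a range of 0.0027 to 0.0706 in all 14 other settings.

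Znhit3 (ENSMUSG00000020526.12, chromosome 11, 84910950 to 84916366), the partner that stabilises NUFIP1, had 7.96, 9.06 and 6.20 CPM in myotubes, against 9.83, 14.6 and 11.9 CPM in myoblasts. The groups were separated by less than the spread inside the myoblasts. The log2 fold change of -0.64 ± 0.25 did not pass the test (SE, adjusted p = 0.0768), nor did it in any of 14 other settings, where the adjusted p was 0.0509 to 0.25. Znhit6 (ENSMUSG00000074182.8, chromosome 3, 145576201 to 145605245), which brings the core proteins to the assembly complex, had 12.6, 19.3 and 21.5 CPM in myotubes, against 27.4, 25.4 and 31.2 CPM in myoblasts. Its log2 fold change of -0.65 ± 0.23 lay just outside the threshold (SE, adjusted p = 0.0521). With the replicate number as a block it passed (-0.68, adjusted p = 0.0362), as it did with DESeq2 (adjusted p = 0.0412), limma-voom (0.0427), library size scaling (0.0285) and no filter on low counts (0.0367). In the remaining 9 of the 14 other settings Znhit6 did not pass, with an adjusted p of up to 0.14 (without myoblast replicate 3).

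All 3 R2TP members fell. Ruvbl1 (ENSMUSG00000030079.15, chromosome 6, 88465409 to 88497566) had 17.0, 28.2 and 25.5 CPM in myotubes, against 56.9, 65.7 and 77.4 CPM in myoblasts. Ruvbl2 (ENSMUSG00000003868.14, chromosome 7, 45421896 to 45436171), which forms mixed rings with RUVBL1, had 28.7, 25.3 and 21.1 CPM in myotubes, against 93.6, 88.6 and 111 CPM in myoblasts. Both ATPase genes stood well under every myoblast library, but in the myotubes Ruvbl1 was lowest in replicate 1 while Ruvbl2 was highest there. Ruvbl1 fell to 35.3% of the myoblast mean, a log2 change of -1.50 ± 0.23 (SE, adjusted p = 0.0019), and Ruvbl2 to 25.6%, a log2 change of -1.96 ± 0.19 (SE, adjusted p = 0.000266). Ruvbl2 had the smallest adjusted p of the 10.

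Pih1d1 (ENSMUSG00000003423.15, chromosome 7, 45150613 to 45160065), the R2TP adaptor that binds phosphorylated clients, had 17.9, 20.3 and 15.9 CPM in myotubes, against 28.7, 30.03 and 23.1 CPM in myoblasts. The gap between the groups was no larger than the spread within the myoblasts. Pih1d1 fell to 66.1% of the myoblast mean, with a log2 change of -0.60 ± 0.19 (SE, adjusted p = 0.0352). Of all tested genes 24.9% had a log2 fold change this low or lower, so its fall lay at the edge of the middle range of all genes. The call was lost without myotube replicate 3 (adjusted p = 0.131), myoblast replicate 1 (0.0684) or myoblast replicate 2 (0.119), within a range of 0.0184 to 0.131 over the 14 other settings.

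**Figure D2:**
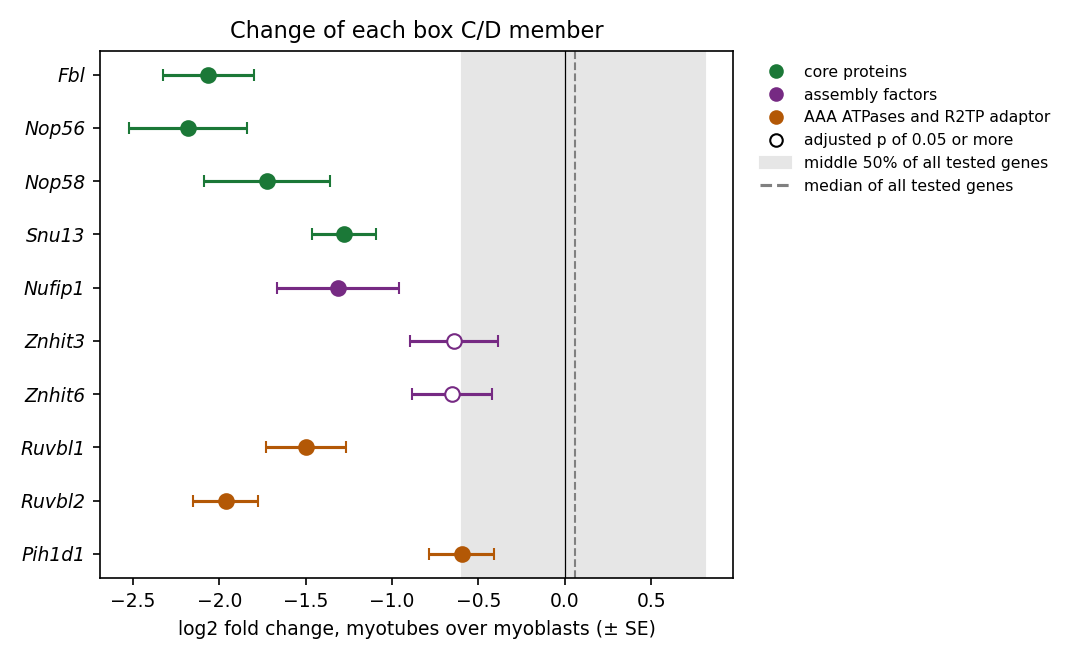
Log2 fold change (myotubes over myoblasts, ± SE) of each member, coloured by role, with open circles for an adjusted p of 0.05 or more and a grey band for the middle 50% of all tested genes (-0.60 to 0.81). The core genes, the ATPases and the assembly factor gene Nufip1 (-1.31) lie left of the band, from -1.28 to -2.18. Znhit3 (-0.64), Znhit6 (-0.65) and Pih1d1 (-0.60) lie at its edge.

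Some members share positions with other annotated genes, and the strand setting of the counting is not given in the sources used here. The RefSeq spans of Ruvbl2 and Gys1 overlap by 1333 bases, those of Pih1d1 and Aldh16a1 by 3924 bases, those of Znhit3 and Myo19 by 277 bases, and those of Nop56 and Idh3b by 5 bases. Gys1 (muscle glycogen synthase) had 8777 reads over the myotube libraries and 5478 over the myoblast libraries, Aldh16a1 1268 in myotubes and 4317 in myoblasts, Myo19 879 in myotubes and 4628 in myoblasts, and Idh3b 7288 in myotubes and 15184 in myoblasts. Whether reads were shared between these genes was not tested. A predicted gene, Gm46965, lies inside the span of Ruvbl1, and it was not analysed here.

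The libraries differed in the same way for most members. Myotube replicate 1 was the lowest myotube library for 7 of the 10, and for 42.7% of all tested genes. Myoblast replicate 3 was the highest myoblast library for 8 of the 10, and for 30.1% of all tested genes. The 10 genes together summed to 223, 381 and 334 CPM in the myotube libraries, against 913, 865 and 1221 CPM in the myoblast libraries. Without myotube replicate 1 the count of members that fell was again 8, while 3517 of 16722 tested genes fell (3122 of 15932 with it).

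Levels of different genes can be compared only per length, as read counts divided by gene length and scaled to a common sum per library (TPM), from the deposited gene length. Within a group the TPM also moved with short abundant RNAs: a gene of 57 bases, Gm23935, took 36.5% of the TPM of myotube replicate 3 and 24.6% of myoblast replicate 1. The order of the members was therefore read within each library. In myotubes the order of mean TPM was Snu13, Nop56, Ruvbl1, Pih1d1, Ruvbl2, Nop58, Znhit6, Znhit3, Nufip1 and Fbl, with Snu13 at 41.0 ± 11.8 TPM and Fbl at 7.25 ± 2.58 TPM (SD, n = 3). Snu13 was above Nop56 in 1 of 3 libraries, Pih1d1 above Ruvbl2 in 2 of 3, Ruvbl2 above Nop58 in 1 of 3, Nop58 above Znhit6 in 1 of 3 and Znhit3 above Nufip1 in 2 of 3, so these neighbours are not ordered, while the other neighbours held their order in all 3. In myoblasts the order was Nop56, Snu13, Ruvbl1, Ruvbl2, Nop58, Pih1d1, Fbl, Znhit6, Nufip1 and Znhit3, with Nop56 at 217 ± 57.1 TPM and Znhit3 at 17.1 ± 5.57 TPM (SD, n = 3). Each gene was above the next in all 3 myoblast libraries, except Ruvbl1 over Ruvbl2 and Pih1d1 over Fbl, which held in 2 of 3. By mean, Fbl came last in myotubes, and above Znhit6, Nufip1 and Znhit3 in myoblasts. In myotube replicate 3, however, Znhit3 lay below Fbl (5.08 against 6.39 TPM). The lengths were 4209 bases for Fbl, 2924 for Snu13 and 10758 for Nop58, and a length that counts rarely used exons lowers a per-length level, so the order depends on the deposited lengths.

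**Figure D3:**
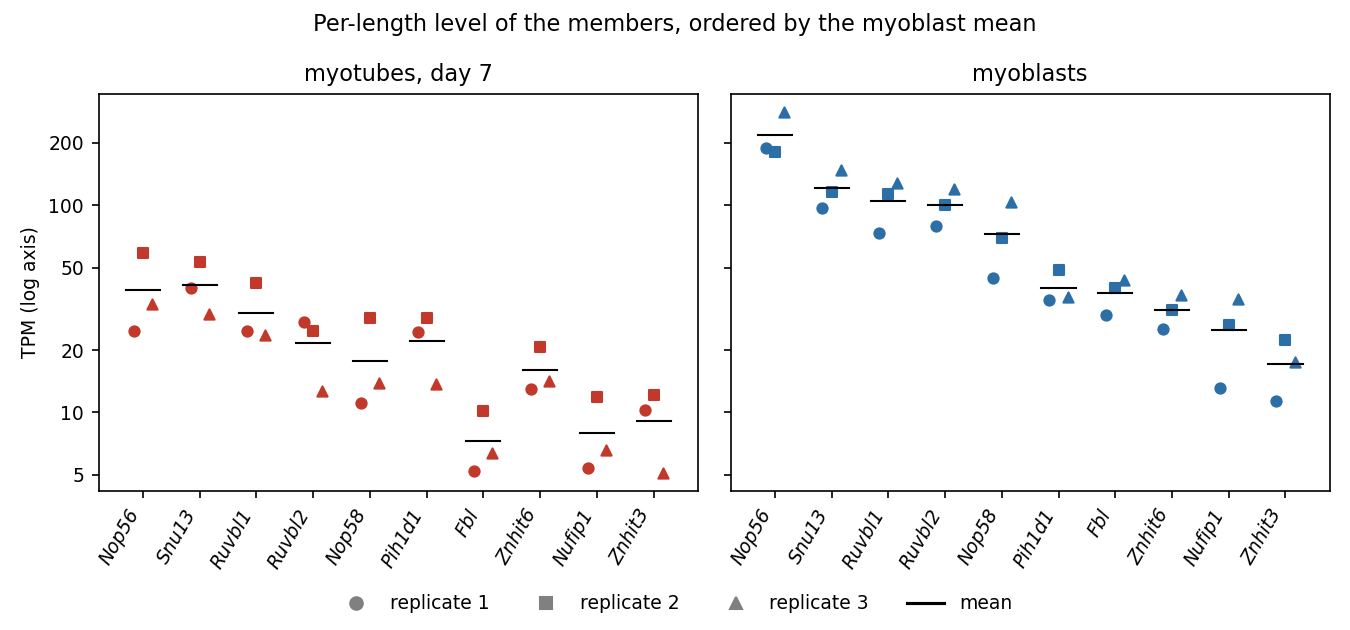
TPM (log axis) of each member in myotubes (left) and myoblasts (right), with genes in the order of the myoblast mean; points are libraries and lines are means of 3. Fbl has the lowest mean in myotubes (7.25 TPM), though Znhit3 is lower in replicate 3, and its mean is above Znhit6, Nufip1 and Znhit3 in myoblasts (37.7 TPM).

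Ratios of members inside a library do not depend on library scaling. For 4 pairs chosen from their roles, the exact permutation test over 6 libraries (two-sided) cannot go below 0.1. The log2 ratio of Fbl to Snu13 was -2.93, -2.40 and -2.23 in myotube replicates 1, 2 and 3, against -1.72, -1.53 and -1.77 in myoblast replicates 1, 2 and 3. The groups did not overlap, and the mean difference, myotubes minus myoblasts, was -0.84 (exact permutation p = 0.1, adjusted over 4 pairs 0.2). The log2 ratio of Nop56 to Nop58 was 1.16, 1.05 and 1.27 in myotubes, against 2.08, 1.37 and 1.44 in myoblasts, a mean difference of -0.47 (exact permutation p = 0.1, adjusted 0.2). The groups did not overlap here either, but the difference was -0.25 without myoblast replicate 1, whose ratio stood apart.

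The log2 ratio of Ruvbl1 to Ruvbl2 was -0.14, 0.77 and 0.89 in myotubes, against -0.11, 0.18 and 0.09 in myoblasts, a mean difference of 0.45 (exact permutation p = 0.4, adjusted 0.4). Myotube replicate 1 lay just under the lowest myoblast value while the other myotube libraries lay above the highest, and the difference was 0.77 without it and 0.26 without myotube replicate 3. The log2 ratio of Nufip1 to Znhit3 was -0.93, -0.03 and 0.37 in myotubes, against 0.21, 0.24 and 1.009 in myoblasts, a mean difference of -0.68 (exact permutation p = 0.3, adjusted 0.4). The groups overlapped, and the difference was -0.31 with myotube replicate 1 left out and -0.42 with myoblast replicate 3 left out.

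**Figure D4:**
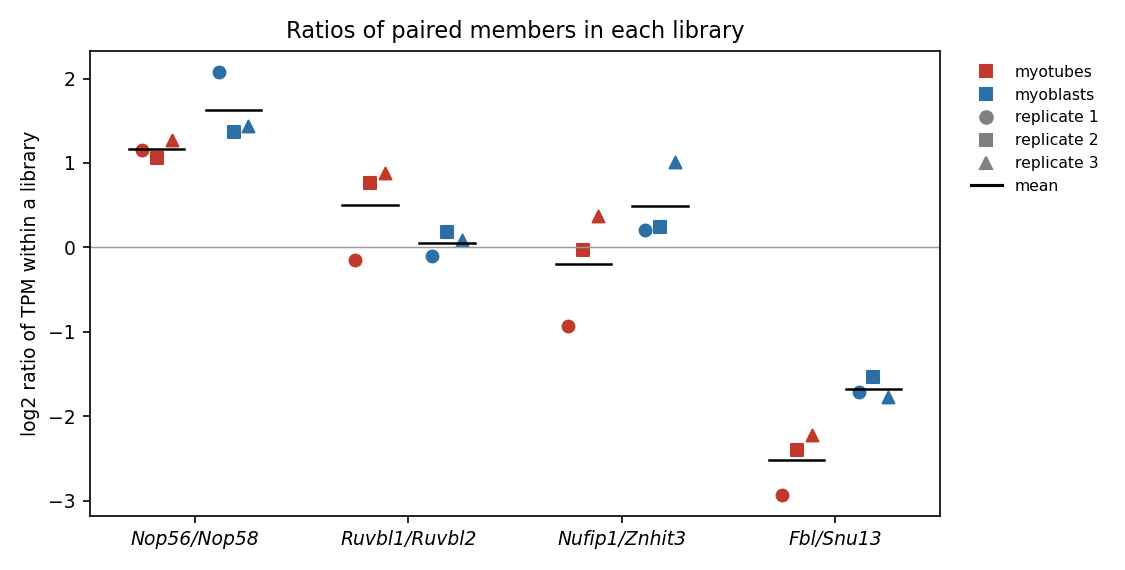
Log2 ratio of the TPM of paired members in each library, myotubes left of myoblasts for each pair; points are libraries and lines are means of 3. The Fbl/Snu13 and Nop56/Nop58 ratios are lower in all 3 myotube libraries than in any myoblast library, while Ruvbl1/Ruvbl2 and Nufip1/Znhit3 overlap, with myotube replicate 1 at the bottom of the myotube values in both.

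Nop56 and Nop58 also carry snoRNA genes in their introns. RefSeq places 5 snoRNA genes inside Nop56, of which Snord110 and Snord57 were in the count table, and 4 inside Nop58, of which Snord70, Gm26287 and Snord11 were. Snord110 had 2, 6 and 0 reads in the myotube libraries, against 18, 9 and 9 in the myoblast libraries. Snord57 had 0 in all 6, with the same upper limits as Fbll1, again for counting error only. How well these libraries captured RNAs as short as Snord57 (deposited length 72 bases) was not tested. Whether reads in these intronic genes came from Nop56 or Nop58 transcripts was not tested either. Snord70 had 7, 17 and 5 reads in myotubes, against 66, 19 and 13 in myoblasts, and it was the only one with enough reads to be tested. Its level of 0.372 ± 0.158 CPM in myotubes and 0.725 ± 0.335 CPM in myoblasts (SD, n = 3) gave a log2 fold change of -0.95 ± 0.54 that did not pass the test (SE, adjusted p = 0.187). Over the group, Gm26287 had 16 reads in myotubes and 58 in myoblasts, and Snord11 had 10 in myotubes and 21 in myoblasts.

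Lists of genes that work with the members were read in the same way, by their counts and medians. Over all tested genes 19.6% fell and 20.5% rose, with a median of 0.06. Of 14 tested genes of the U3 particle and the core of the small-subunit processome, the complex that U3 nucleates on the ribosomal RNA precursor, 12 fell and none rose, with a median log2 fold change of -1.16. The WD-repeat protein gene Wdr43 had 74.1 ± 22.4 CPM in myotubes and 204 ± 70.4 CPM in myoblasts (SD, n = 3), and the GTPase gene Bms1 had 87.7 ± 24.4 CPM in myotubes and 143 ± 19.1 CPM in myoblasts. Rrp9, which encodes the protein found on U3 beside the shared core, changed by -1.94 ± 0.43 and was the lowest of this list. It was named after its value was seen. Leaving out myoblast replicate 2 left 7 falls in this list (median -1.26), and leaving out myoblast replicate 3 left 6 (median -0.97). Falls over all tested genes also dropped, from 3122 of 15932 to 2127 of 16469 and 2224 of 16960.

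Of 21 tested genes of snoRNA maturation and transport 12 fell (57.1%, against 19.6% of all tested genes). None rose, and the median was -0.70. The export receptor gene Xpo1, whose product moves snoRNA precursors toward the nucleolus, changed by -1.44 ± 0.21 on the log2 scale, and the cap-binding gene Ncbp1 by -0.83 ± 0.22 (SE, adjusted p = 0.0016 and 0.0186). The cap trimethylation enzyme gene Tgs1 and the transport adaptor gene Phax did not pass the test, at -0.20 ± 0.27 and -0.16 ± 0.18. These last examples were chosen after their values were seen.

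Of 15 tested genes of the wider R2TP, prefoldin-like and HSP90 list, 8 fell (53.3%, against 19.6% of all tested genes). In that list 1 rose (20.5% of all tested genes rose), and the median was -0.53. Hsp90ab1 had 1307 ± 205 CPM in myotubes and 2783 ± 115 CPM in myoblasts (SD, n = 3), and Hsp90aa1 had 490.05 ± 61.7 CPM in myotubes and 1426 ± 361 CPM in myoblasts. Rpap3, the R2TP subunit that binds HSP90, changed by -0.76 ± 0.15 (SE, adjusted p = 0.00568), and was named after its value was seen. Pdrg1, of the prefoldin-like module, rose by 0.72 ± 0.19 on the log2 scale (SE, adjusted p = 0.0195).

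SNU13, RUVBL1 and RUVBL2 also belong to other complexes. Of 15 tested tri-snRNP genes 8 fell (53.3%, against 19.6% of all tested genes) and none rose, with a median of -0.70. Eftud2, the GTPase of that particle, changed by -1.38 ± 0.20 and Sart1 by -0.70 ± 0.15 (SE). Prpf31, whose protein shares the NOP domain with NOP56 and NOP58, changed by -1.30 ± 0.22 (SE, adjusted p = 0.00259). Of 18 tested genes of chromatin complexes that contain RUVBL1 and RUVBL2 (INO80, SRCAP and TIP60), 3 fell and 1 rose, a share of falls of 16.7% against 19.6% of all tested genes, with a median of -0.27. Actl6a fell by 1.12 ± 0.17 and Brd8 by 0.64 ± 0.18 on the log2 scale, while Mbtd1 rose by 0.74 ± 0.16 (SE). The count of falls in that list was 1 without myotube replicate 3 or without myoblast replicate 2. Falls over all tested genes were then 2172 and 2127, against 3122 in the reported fit.

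The box H/ACA proteins are the counterpart set of the pseudouridylation guides. Of these 6 tested genes 4 fell (66.7%, against 19.6% of all tested genes) and none rose. Their median was -1.47, close to -1.41 for the box C/D members. Dkc1, the pseudouridine synthase gene, had 25.9 ± 9.92 CPM in myotubes and 149.6 ± 49.4 CPM in myoblasts (SD, n = 3). Nhp2, the relative of Snu13 in that particle, had 20.4 ± 7.60 CPM in myotubes and 86.3 ± 18.4 CPM in myoblasts (SD, n = 3). Nufip2, a relative of Nufip1, did not pass the test, at 0.13 ± 0.20 on the log2 scale (SE, adjusted p = 0.607).

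**Figure D5:**
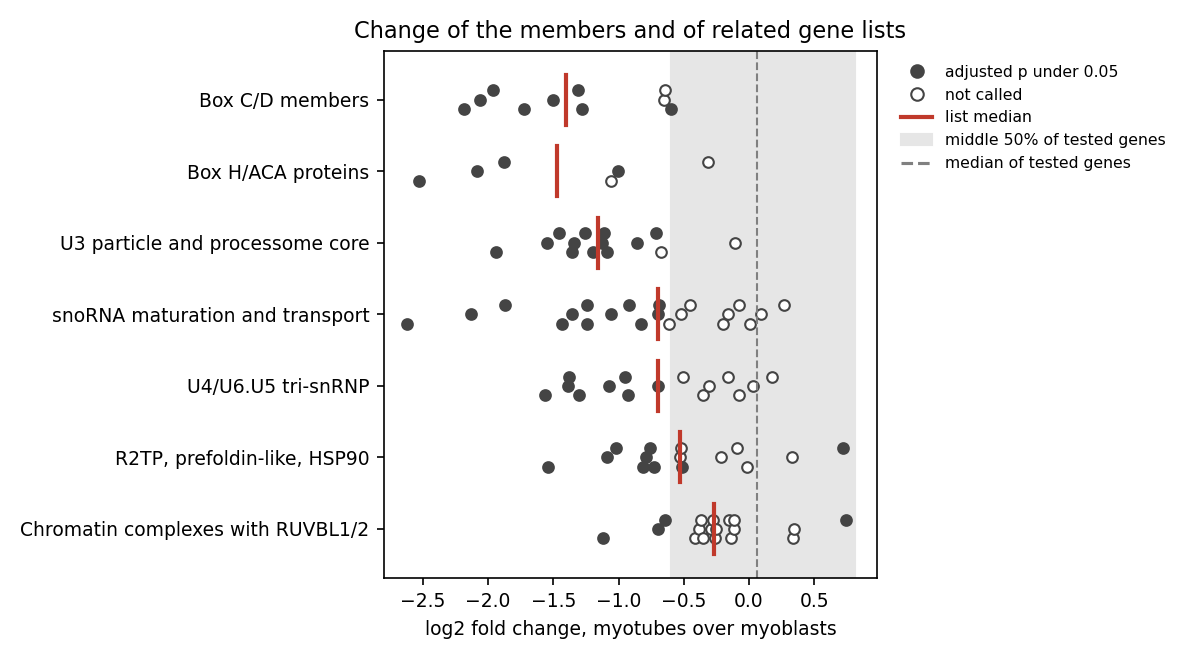
Log2 fold changes (myotubes over myoblasts) of the members and of related gene lists; each point is 1 tested gene, filled where the adjusted p was under 0.05, with the list median in red and the middle 50% of all tested genes in grey. The medians run from -1.47 (box H/ACA) and -1.41 (box C/D members) to -0.27 for the chromatin complexes with RUVBL1 and RUVBL2.

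The genes whose profile over the 6 libraries lay nearest to the core proteins were found by the root mean square difference of centred log2 CPM, among 5788 other genes that averaged 5 or more on the log2 CPM scale. They were Noc2l (0.0697 log2 units), a nucleolar factor, Pa2g4 (0.0841), a growth-linked RNA-binding protein gene, Srsf2 (0.109), a splicing factor gene, Utp20 (0.11), of the small-subunit processome, and Gart (0.122), of purine synthesis. Noc2l had 27.7, 50.2 and 50.7 CPM in myotubes, against 135, 120.2 and 191 CPM in myoblasts, with the low myotube replicate 1 and the high myoblast replicate 3 of the core genes. The core genes lay at 0.167 (Fbl), 0.179 (Nop58), 0.243 (Nop56) and 0.347 (Snu13) from their own mean profile. Among the members outside the core, Ruvbl1 was nearest (0.205, with 0.639% of the other genes nearer), and it lay nearer than Nop56 and Snu13. Pih1d1 was farthest (0.745, with 27.5% nearer), with Znhit3 close to it (0.738, with 26.9% nearer). Nufip1, Znhit3, Znhit6, Pih1d1 and the core gene Fbl averaged under 5 log2 CPM, so they were set against genes of higher level. Without myotube replicate 1 the list of 5 shared 2 genes with the full one.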

How the data were processed

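Total RNA of C2C12 cells was made into libraries with the TruSeq Stranded Total RNA Gold kit, per the labels' protocols. Named in the submitters' processing notes, without roles, are mm10, DESeq2 1.18.1, featureCounts 1.5.1, STAR 2.5.1b, Salmon 0.12.0 and bcl2fastq. The authors deposited raw counts per gene with a gene length. They also deposited normalised counts (a scaled signal), equal to the raw count times 1 factor per library, used here only for that factor as an alternative scaling. All 6 sample columns were mapped by their names.

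Tests were run on the deposited raw counts with edgeR 4.0.16 under R 4.3.3: TMM scaling, filterByExpr by group, robust quasi-likelihood F-test, no covariate, Benjamini-Hochberg adjustment over 15932 genes, threshold 0.05. Standard errors were obtained from the log2 change and the F statistic (size of the change over root F). DESeq2 1.42.0 and limma 3.58.1 were alternatives. The procedure was also run on simulated data in which few genes changed, a setting unlike these data. Its outcome is not given here. Log2 CPM used a prior count of 2. The members, gene lists and tests were chosen with earlier results of these data known. All members were named. Of a related list, the called genes with the highest mean level were named, up to 2 per direction, and others only where stated. Outside this rule, the relatives Nufip2 (not called) and Fbll1 (not tested) were also named. Dpcd and Nopchap1 of the R2TP list were not analysed here.

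Deviations from the group means had correlations of 0.232, 0.189 and 0.17 for same-numbered libraries, each above 0.1. For libraries of different number they ranged over -0.43 to 0.358 (myotube 2 with myoblast 3 the highest). As the highest was a pair of different number, the correlations cannot settle whether the numbers mark pairs. The replicate numbers in the labels were treated as a pairing only in the blocked alternative and the sign-flip test. All library pairs differed beyond sampling noise (lowest chi-square over its degrees of freedom 102.8). All 10 member identifiers were in the reference gene name table. Promoters are from RefSeq, GRCm38.p6.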

Additional observations from a re-analysis of the deposited data

How the results depend on the processing

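Fold changes and counts were recomputed under 14 other settings: 3 scalings, 2 filters, DESeq2, limma-voom, the replicate block, and without each library in turn. Of the 10 members, 8 fell in the reported fit, 9 with the replicate block, and 6 to 8 without single libraries, with 0 rising in every setting. Falls over all tested genes changed too. They were 3122 of 15932 in the reported fit. Without single libraries they ran from 2127 of 16469 (myoblast replicate 2 left out) to 3517 of 16722 (myotube replicate 1 left out). All 10 kept a negative log2 fold change in each of the 14 settings. Fbl, Nop56, Nop58, Snu13, Ruvbl1 and Ruvbl2 kept their calls in all 14, with adjusted p of at most 0.0258 (Nop58 without myoblast replicate 3). Scaling by library size alone moved the median of all tested genes by -0.13 and the members' median to -1.51, and leaving out single libraries moved the members' median over -1.62 to -1.27. With the replicate block 3322 genes were called lower and 3561 higher (3122 and 3264 without it), which added Znhit6 and changed no other member's call. The paired differences of the 4 ratios equal the unpaired ones (-0.84, -0.47, -0.68 and 0.45), and a sign-flip test over 3 pairs cannot go below 0.25. Of the 5 genes nearest to the core profile, 2 were shared without myotube replicate 1. The snoRNA genes inside Nop56 and Nop58 had at most 66 reads in a library.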
